A study of Homo sapiens with 4 samples.

Results

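The microRNAs hsa-miR-183-5p, hsa-miR-96-5p and hsa-miR-182-5p are cut from 3 hairpins that lie side by side and are transcribed together. They were followed here in PC-3, an established cell line from a human prostate cancer, with and without apelin, a secreted peptide that binds the receptor APJ. The members were chosen by name: they are 3 of the 1096 entries in the deposited table, of which 516 carry a catalogue name (with the prefix hsa-, dropped below). The apelin group had 2 libraries from cells given 10 µg/mL for 24 h, and the control group had 2 libraries from cells with no treatment. The labels name a single cell line and give no sign that replicate libraries are separate cultures. The p-values below therefore reflect only how far these 4 libraries spread, which could be technical variation.

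A microRNA is loaded into an Argonaute protein and guides it to messenger RNAs, mainly by pairing its seed, the bases near its 5′ end, with a site in the message, which lowers the stability and translation of that message. The miR-183 cluster is strongly expressed in sensory organs, where miR-96 is known for its link to inherited hearing loss. It is also among the microRNA groups often found raised in prostate tumours, and in prostate cells its members repress the zinc importer ZIP1. miR-183-5p is known to repress EGR1, miR-96-5p to repress FOXO1, and miR-182-5p to repress FOXO3 and MITF.

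The hairpins lie on the minus strand of chromosome 7 (GRCh38), in the order of transcription MIR183 from 129774905 to 129775014, MIR96 from 129774692 to 129774769 and MIR182 from 129770383 to 129770492, per GENCODE release 29. MIR183 and MIR96 are 135 bp apart, and 4199 bp separate MIR96 from MIR182. No other annotated gene overlaps any of the 3 hairpins, so they are intergenic. The nearest annotated gene downstream of the cluster is the coding gene NRF1, 13300 bp away on the plus strand, and the nearest upstream is the lincRNA AC084864.1, 8355 bp away on the minus strand.

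The mature sequences (RefSeq, GRCh38.p14, 5′ to 3′) are shown because the members share most of their seed and can be mistaken for one another. Capitals mark the seed, bases 2 to 8.
miR-183-5p: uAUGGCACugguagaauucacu
miR-96-5p: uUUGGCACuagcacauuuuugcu
miR-182-5p: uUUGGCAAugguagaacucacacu
miR-1271-5p: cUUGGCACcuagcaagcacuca
The run UGGCA begins at base 3 in all 3 members. With sequences aligned at the 5′ end, miR-183-5p and miR-182-5p were identical at 18 of 22 bases, but at 5 of the 7 seed bases. miR-96-5p shared 6 of 7 seed bases with each of the others, and matched miR-183-5p at 13 of 22 bases and miR-182-5p at 12 of 23. No 2 members have the same seed. The message sites that would pair with the seeds in full are GUGCCAU for miR-183-5p, GUGCCAA for miR-96-5p and UUGCCAA for miR-182-5p. Of the 2370 mature entries in the RefSeq table, only miR-1271-5p, from chromosome 5, has the seed of a member, that of miR-96-5p.

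All 3 members were well above the limit of detection. The libraries held 5322429 to 6014838 counts, and a count of 0 would allow up to 3 counts, or 0.499 to 0.564 TPM. TPM here means counts per 1000000 counts of the library, with no division by length. Some entries hold the same counts in every library, as miR-92a-3p and miR-92a-2-3p do (160845 counts each in apelin 1). The library totals, and the TPM and percentages drawn from them, may thus count some reads more than once. Apart from such repeats, each count is a read of a mature miRNA, so levels of different miRNAs are given per read. How well each is captured by adaptor ligation was not measured. Binomial (Wilson) intervals at 95% are given below, and cover counting error only, because amplified reads with no molecular identifier cannot be counted as separate molecules.

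miR-183-5p, the first hairpin of the transcript, had 5581 and 5636 TPM in the apelin libraries 1 and 2, against 5654 and 5624 TPM in the control libraries 1 and 2. The groups overlapped, and the 4 values were nearly level. The counts were 29705 and 32132 with apelin and 34010 and 31850 in controls. Counting error alone gives 5518 to 5645 TPM in apelin 1 and 5595 to 5715 TPM in control 1, the lowest and the highest library, so these intervals overlapped.

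miR-96-5p, the middle hairpin, had 274 and 419 TPM with apelin, against 211 and 246 TPM in controls. Both apelin libraries lay above both controls, with apelin 2 far above the other 3. The counts behind these values were 1459 and 2390 with apelin and 1267 and 1395 in controls. The counting interval of apelin 2 was 403 to 436 TPM and that of apelin 1 was 260 to 289 TPM. The intervals of the apelin group thus did not overlap, though they treat each amplified read as a separate molecule and are too narrow for that reason. Those of the controls were 199 to 223 TPM in control 1 and 234 to 260 TPM in control 2. The interval of control 2 ended at 259.6 TPM, just short of the 260.4 TPM where that of apelin 1 began.

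miR-182-5p, the last hairpin, had 7611 and 7462 TPM with apelin, against 9001 and 6821 TPM in controls. Here the apelin libraries lay close together, between a high control 1 and a low control 2. The counts were 40511 and 42541 with apelin and 54137 and 38627 in controls.

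**Figure D1:**
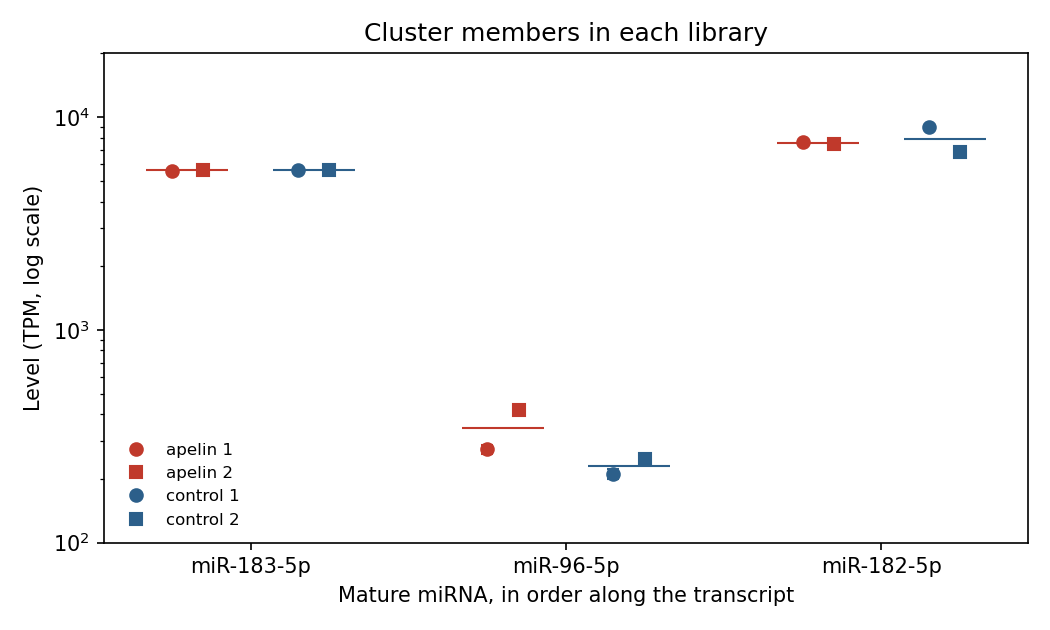
Level of each cluster member (TPM, log scale) in the 2 apelin libraries (red) and the 2 control libraries (blue), with library 1 as a circle and library 2 as a square. Vertical bars, mostly hidden by the symbols, are 95% binomial intervals of the counts, short lines are group means, and miR-96-5p lies at least 13.4 times below its neighbours in every library, with 419 TPM in apelin 2 as its highest value.

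The order of the levels, miR-182-5p above miR-183-5p above miR-96-5p, held in all 4 libraries. The lowest library of miR-182-5p (6821 TPM) stood above the highest of miR-183-5p (5654 TPM). By mean TPM over the libraries the members ranked 28, 35 and 125 among the 1096 entries. Entries with the same counts, such as miR-92a-3p and miR-92a-2-3p, hold separate places above all 3 in this ranking. miR-182-5p (mean 7724 TPM) stood between let-7f-5p (8162 TPM) and miR-26a-5p (7123 TPM), and its libraries overlapped with those of both. miR-183-5p (mean 5624 TPM) stood between miR-30c-5p (5969 TPM) and miR-27a-3p (5335 TPM). Every library of miR-30c-5p was above every library of miR-183-5p, the nearest pair being 5830 and 5654 TPM, while miR-27a-3p, at 3960 to 6646 TPM, overlapped with it. miR-96-5p (mean 288 TPM) stood between miR-330-3p (295 TPM) and miR-1269a (283 TPM), and its libraries overlapped with those of both.

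miR-1271-5p, the only miRNA with the seed of miR-96-5p, was scarcely detected. It was listed at 1.32 and 0 TPM with apelin and at 0 and 0.71 TPM in controls, which is too low to test. Nearly all of the counts with that seed were therefore those of miR-96-5p in these libraries. The other arms of the hairpins (miR-183-3p, miR-96-3p and miR-182-3p) were looked for under these names and had no entry in the deposited table.

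The members were next compared between apelin and control cells by the quasi-likelihood test of edgeR, applied to counts scaled by TMM (a factor per library that evens out differences in composition). The fit took in all 263 entries with a mean of at least 10 TPM, 3 of 3 members among them, and p-values were Benjamini-Hochberg adjusted over the 263. No member was called, against 0 of 263 entries overall (0.0%). Before adjustment, 15 entries had an edgeR p under 0.05 (5.7%), none of them a member. DESeq2 called 53 of the 263 entries (20.2%), again without a member.

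For miR-96-5p the mean was 347 ± 103 TPM with apelin and 228 ± 25.2 TPM in controls (SD, n = 2 each). The fitted log2 fold change was 0.63 (SE 0.32, 95% interval -0.39 to 1.65, edgeR adjusted p = 0.627), so miR-96-5p did not pass the test. It was 0.18 without apelin 2 and 0.92 without apelin 1 (edgeR adjusted p = 0.739 and 0.285). Over the 16 alternative settings it stayed positive. Both apelin libraries were above both controls in 20.9% of all tested entries, and in 47 of the 207 tested miRNAs with a catalogue name and counts in every library (22.7%), so many miRNAs were placed like this.

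For miR-183-5p the mean was 5608 ± 38.7 TPM with apelin and 5639 ± 21.2 TPM in controls (SD, n = 2 each). Its log2 fold change was 0.012 (SE 0.084, 95% interval -0.26 to 0.28, edgeR adjusted p = 0.957), and it changed sign with the scaling, to -0.0079 with library totals. For miR-182-5p the mean was 7536 ± 106 TPM with apelin and 7911 ± 1541 TPM in controls (SD, n = 2 each). Its log2 fold change was -0.056 (SE 0.21, 95% interval -0.73 to 0.62, edgeR adjusted p = 0.923), and it was 0.17 without control 1 and -0.28 without control 2. The intervals of both still hold changes of some size, and that of miR-182-5p is the wider because the 2 controls differed.

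**Figure D2:**
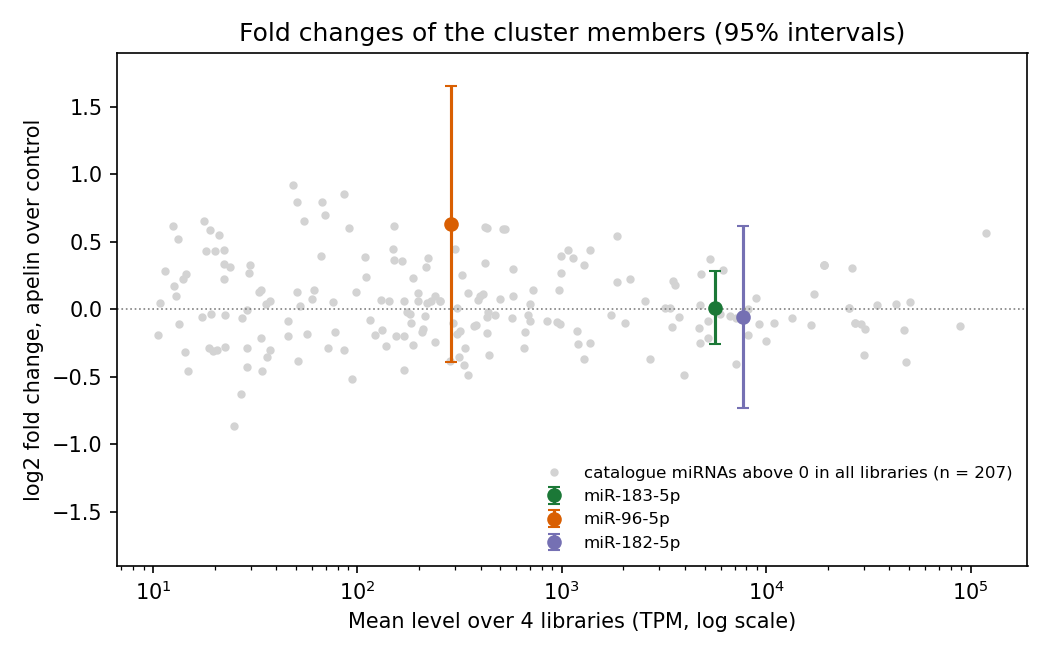
log2 fold change of apelin over control against mean level (TPM, log scale) for the 207 tested miRNAs with a catalogue name and counts in every library (grey), with the 3 members in colour and their 95% intervals from edgeR. All 3 intervals cross 0, with miR-96-5p at 0.63, miR-183-5p at 0.012 and miR-182-5p at -0.056.

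Added together, the 3 members held 1.35% and 1.35% of all counts in the apelin libraries, against 1.49% and 1.27% in the controls. The sum was 13492 ± 35.4 TPM with apelin and 13779 ± 1537 TPM in controls (SD, n = 2 each), so the apelin libraries fell between the controls. On the log2 scale with TMM scaling the difference was -0.0057 (exact permutation test over libraries, two-sided, p = 1.00). With 2 against 2 libraries this test cannot go below 0.333. The difference was 0.15 without control 1 and -0.16 without control 2. The sum is mostly miR-182-5p and miR-183-5p, and the mean of the members' log2 levels, which weights them equally, was 0.19 higher with apelin.

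Within a library, the ratio of 2 members does not depend on how libraries are scaled. The ratio of miR-182-5p to miR-183-5p was 1.36 and 1.32 in the apelin libraries, against 1.59 and 1.21 in the controls. miR-182-5p thus exceeded miR-183-5p everywhere, by amounts that overlapped between the groups. The log2 ratio differed by -0.048 (exact permutation test, two-sided, p = 1.00), and by 0.15 without control 1 and -0.24 without control 2.

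The ratio of miR-183-5p to miR-96-5p, whose hairpins are 135 bp apart, was 20.4 and 13.4 with apelin, against 26.8 and 22.8 in controls. Both apelin libraries were below both controls, and apelin 2 was the lowest. The log2 ratio differed by -0.58 (exact permutation test, two-sided, p = 0.333, the smallest that 2 against 2 libraries can give, and 1.00 after Benjamini-Hochberg adjustment over the 3 ratios). Leaving out apelin 2 gave -0.28 and leaving out apelin 1 gave -0.88. Of the other 206 catalogue miRNAs above 0 in all libraries, 58.7% had a ratio to miR-96-5p that was lower in both apelin libraries than in both controls, so this placing was not a rare one among miRNAs set against miR-96-5p.

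The ratio of miR-182-5p to miR-96-5p was 27.8 and 17.8 with apelin, against 42.7 and 27.7 in controls. Apelin 1 and control 2 were almost equal, with apelin 1 higher by a small margin, so the groups overlapped. The log2 ratio differed by -0.63 (exact permutation test, two-sided, p = 0.667, and 1.00 after adjustment over the 3 ratios). It was -0.31 without apelin 2, -0.95 without apelin 1, -0.32 without control 1 and -0.94 without control 2.

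**Figure D3:**
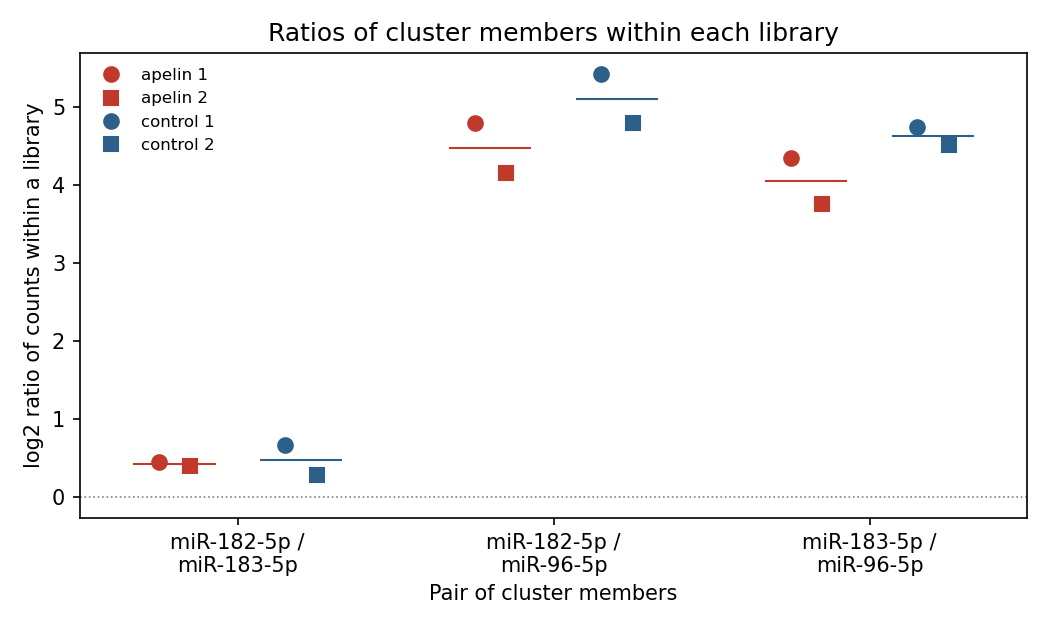
log2 ratio of counts between 2 members within each library, for the 2 apelin libraries (red) and the 2 control libraries (blue), with group means as short lines. The miR-183-5p to miR-96-5p ratio is lower in both apelin libraries (20.4 and 13.4) than in both controls (26.8 and 22.8), and the other pairs overlap between the groups.

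Seen as shares of the cluster's own counts, miR-182-5p made up 56.5% and 55.2% with apelin, against 60.5% and 53.7% in controls. The difference in means was -1.28 percentage points (exact permutation test, two-sided, p = 1.00). It was 2.12 percentage points without control 1 and -4.68 without control 2. miR-183-5p made up 41.4% and 41.7% with apelin, against 38.0% and 44.3% in controls. miR-96-5p made up 2.04% (95% Wilson interval 1.93 to 2.14) and 3.10% (2.98 to 3.23) with apelin, against 1.42% (1.34 to 1.50) and 1.94% (1.84 to 2.04) in controls. For this share of miR-96-5p the intervals of apelin 1 and control 2 overlapped, so the share did not tell these libraries apart at this depth. Their intervals in TPM missed each other by a narrow margin, and both kinds of interval cover counting error only.

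The members also differed in how far they varied over all 4 libraries. On the deposited TPM scale miR-183-5p had a highest to lowest ratio of 1.01, the smallest of the 207 catalogue miRNAs above 0 in all libraries, though with TMM or DESeq2 scaling it became 1.08 and ranked 5 of 207. The ratio in TPM for miR-182-5p was 1.32, ranking 78 from the smallest, and for miR-96-5p it was 1.99, ranking 188. With TMM scaling miR-182-5p ranked 109 and miR-96-5p 189, and with DESeq2 scaling 86 and 193. The log2 range of miR-182-5p with TMM scaling was 0.48, just above the median of 0.47. In log2 TPM the range was 0.019 for miR-183-5p, 0.40 for miR-182-5p and 0.99 for miR-96-5p, beside a median of 0.46 over the 207. The spread of miR-182-5p lay within the controls, where its log2 range was 0.40, against 0.029 between the apelin libraries. The spread of miR-96-5p was larger within the apelin group, at 0.61, against 0.23 between the controls.

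**Figure D4:**
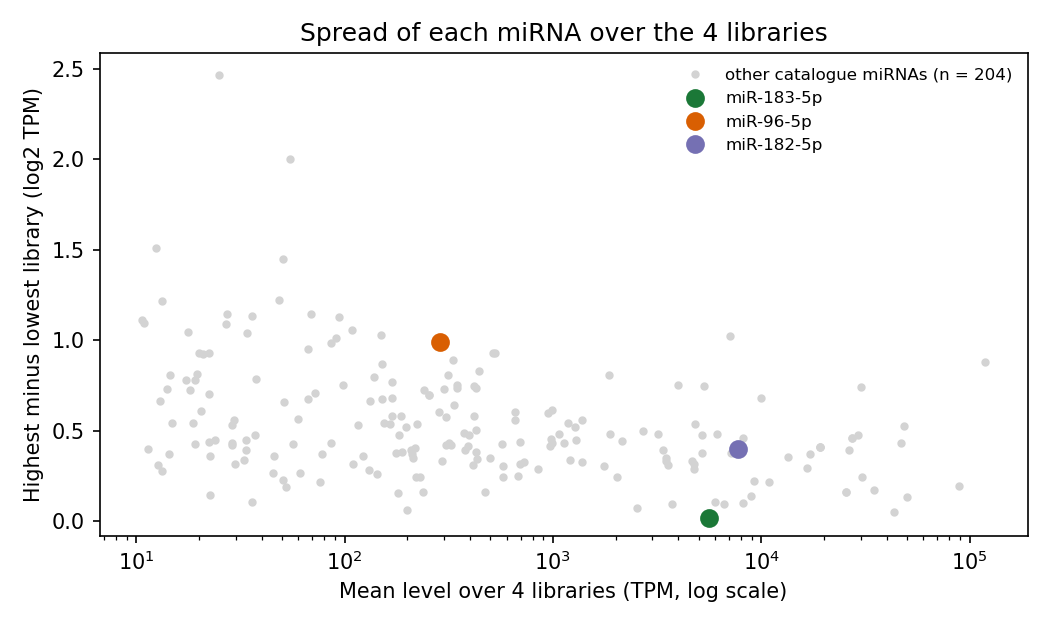
Highest minus lowest library in log2 TPM against mean level (TPM, log scale) for each of the 207 tested miRNAs with a catalogue name and counts in every library, with the 3 members in colour. miR-183-5p has the smallest range at 0.019 on this scale (5 of 207 under the other scalings), miR-182-5p lies at 0.40 and miR-96-5p at 0.99.

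The miRNAs whose pattern was most like each member were found from the profile of log2(CPM + 1) over the 4 libraries, centred on its mean, by the root mean squared difference from the member among the other 206. This is a description over 4 libraries, and every profile was drawn from the same 4 libraries and their totals. For miR-183-5p the closest were miR-221-3p (0.018), which represses the cell cycle inhibitor p27, then miR-99a-5p (0.028), miR-186-5p (0.030), miR-25-3p (0.035) and miR-200b-3p (0.037), a repressor of ZEB1 and ZEB2. In the same order, these ranked 2, 3, 4, 5 and 6 from the smallest range in TPM, after miR-183-5p itself. Since miR-183-5p was nearly level on that scale, its list holds the other most level miRNAs and shows no shared rise or fall. For miR-182-5p the closest were miR-504-5p (0.012), miR-342-3p (0.036), miR-146b-5p (0.082), miR-874-3p (0.10) and miR-362-5p (0.11). miR-504-5p was highest in control 1 like miR-182-5p, with 19.0 and 18.6 TPM with apelin and 22.3 and 16.6 TPM in controls. These values rest on only 101 and 106 counts with apelin and 134 and 94 in controls. The difference of 0.012 takes no account of counting error at that depth.

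For miR-96-5p the closest were miR-651-5p (0.033), miR-101-2-3p (0.034), miR-21-5p (0.039), miR-101-3p (0.040) and miR-582-5p (0.061). Low counts lie behind miR-651-5p, at 92 and 147 with apelin and 75 and 88 in controls. Those of miR-582-5p were also low, at 107 and 167 with apelin and 93 and 108 in controls. miR-21-5p, a repressor of PDCD4 and the most abundant entry, had 113810 and 168194 TPM with apelin and 91403 and 103045 TPM in controls, which is the order of libraries seen for miR-96-5p. miR-101-3p, a repressor of EZH2, had 509 and 725 TPM with apelin and 381 and 455 TPM in controls. Its counts were 2710 and 4136 with apelin and 2289 and 2575 in controls. The entry miR-101-2-3p, named for a copy of its hairpin, had nearly the same counts, 2745 and 4227 with apelin and 2339 and 2602 in controls. These 2 entries probably hold mostly the same reads, so they are not separate likenesses. Neither other member was close to miR-96-5p: miR-183-5p ranked 80 and miR-182-5p ranked 109 among the 206. miR-183-5p ranked 19 among those most like miR-182-5p, and miR-182-5p ranked 60 among those most like miR-183-5p.

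The miRNAs closest to miR-96-5p are printed for their base composition, with bases 2 to 8 in capitals (RefSeq, GRCh38.p14).
miR-651-5p: uUUAGGAUaagcuugacuuuug
miR-21-5p: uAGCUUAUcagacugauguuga
miR-101-3p: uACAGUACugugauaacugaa
miR-582-5p: uUACAGUUguucaaccaguuacu
None of these shares a seed with a member. Their GC content was 31.8 to 36.4%, beside a median of 47.8% (quartiles 40.9 and 58.2%) over the 178 of the 207 miRNAs that matched RefSeq by name. The 4 matched miRNAs closest to miR-183-5p had 36.4 to 50.0%, and the 5 closest to miR-182-5p had 43.5 to 77.3%. The members themselves were alike, at 40.9% for miR-183-5p, 39.1% for miR-96-5p and 41.7% for miR-182-5p. The part of base composition in the profile of miR-96-5p was not tested.

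Other miRNAs tied to the cluster by place or role gave no edgeR call either, as was so for all 263 tested entries. Of the listed miRNAs of 7q32, the band that holds the cluster, 3 were tested, 0 were called by edgeR and 2 had positive log2 fold changes, with a median of 0.27. They were led by miR-29a-3p, a repressor of collagens, at 27893 and 29958 TPM with apelin and 22815 and 24669 TPM in controls, which is 0.31 on the log2 scale (SE 0.092, adjusted p = 0.627 in edgeR). miR-29b-1-5p had 189 and 148 TPM with apelin and 221 and 186 TPM in controls. Of other miRNAs reported to repress FOXO1 or FOXO3, as miR-96-5p and miR-182-5p do, 6 were tested, 0 were called and 5 had positive values, with a median of 0.16. Besides miR-29a-3p the most abundant was miR-27a-3p, at 5277 and 6646 TPM with apelin and 3960 and 5456 TPM in controls. Of other miRNAs often raised in prostate tumours, 10 were tested, 0 were called and 5 had positive values, with a median of 0.012. miR-21-5p led this list, followed by miR-425-5p at 9453 and 8716 TPM with apelin and 8593 and 8802 TPM in controls. Over all 263 tested entries 130 had positive values and the median was -0.018.

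Marker miRNAs of other tissues were low, and all but miR-486-5p, a red cell miRNA, fell short of the filter and were not tested. Of the stromal list 3 of 5 were found in the table (miR-143-3p, miR-199a-3p and miR-214-3p), 1 of them above 0 in all libraries, and they summed to 5.79 to 6.01 TPM with apelin and 4.42 to 6.49 TPM in controls. Of the blood list 3 of 7 were found, 1 of them above 0 in all libraries, and they summed to 29.1 to 35.9 TPM with apelin and 37.8 to 40.4 TPM in controls, nearly all of it miR-486-5p (33.8 and 28.2 TPM with apelin, 35.7 and 37.1 TPM in controls). The endothelial miR-126-3p had 6.95 and 13.7 TPM with apelin and 6.32 and 7.24 TPM in controls, and the liver miRNA miR-122-5p had 4.32 and 1.75 TPM with apelin and 4.82 and 2.30 TPM in controls. PC-3 is an epithelial line, and the epithelial list had a far higher sum, which came from 1 marker. The list had 4 of 5 miRNAs in the table (miR-141-3p was absent), 3 of them tested. It summed to 6562 to 6595 TPM with apelin and 6801 to 7046 TPM in controls, nearly all of it miR-200b-3p. The rest were low, with miR-200c-3p at 26 and 23 TPM with apelin and 33 and 33 TPM in controls. miR-205-5p had 81 and 72 TPM with apelin and 94 and 98 TPM in controls, and miR-203a-3p was above 0 only in control 1 (2.49 TPM). All 3 tested epithelial miRNAs had both apelin libraries below both controls, a placing held by 17.5% of all tested entries, and 0 were called by edgeR. Their log2 fold changes were -0.42 for miR-200c-3p, -0.30 for miR-205-5p and -0.048 for miR-200b-3p, with a median of -0.30. The luminal prostate list (miR-375-3p and miR-148a-3p, both tested, 0 called) summed to 25.4 to 29.5 TPM with apelin and 27.4 to 33.4 TPM in controls. Their part in the members' values was not tested.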

How the data were processed

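Small RNA of PC-3 cells was sequenced after adaptor ligation, PCR and recovery of 140 to 160 bp products, per the labels' protocols. Trimmomatic 0.30 trimmed the reads, and DESeq2 is named as well, per the submitters' processing notes. The sources used here do not name the aligner, miRNA catalogue or build. The authors deposited 1 table with raw counts and TPM per library and a length in nt (18 to 25 nt). The deposited TPM equal counts per 1000000 within 0.151 or less. The deposited counts were tested with edgeR 4.0.16 (R 4.3.3) after a filter of 10 TPM on the mean of the 4 libraries, which does not use the groups. limma 3.58.1 on log2(TPM + 1), DESeq2 1.42.0, other scalings, filters and pseudocounts, a replicate block and leaving out each library were alternatives. SEs were obtained by dividing the absolute log2 fold change by the root of the F statistic. Sums, ratios and shares were tested by exact permutation (scipy 1.17.1). The tests were checked on simulated data. Python 3.11.15, pandas 2.3.3, numpy 2.4.6 and matplotlib 3.10.9 were used. The members and the lists were chosen with earlier results of these data known. Besides the members, the miRNAs named are those sharing a seed with a member, those next to a member in mean TPM, the 5 most alike in profile and the 2 most abundant of each list. The other listed markers (among them miR-143-3p and miR-200c-3p) and the entries with repeated counts were named after their values were seen. So were the pairs and miRNAs set beside the cluster under other observations.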

Additional observations from a re-analysis of the deposited data

How the results depend on the processing

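No member passed the edgeR, DESeq2 or limma test under any of the 16 alternative settings. The count of called entries, 0 in edgeR, was 52 with no filter, 4 at a mean of 100 TPM, 53 with DESeq2, 4 with limma on log2(TPM + 1), 5 with a pseudocount of 0.1 and 4 with one of 10, and 0 to 19 with a library left out. The cause was not tested, though 51 of the 52, 30 of the 53 and every other one of these called entries were at 0 in some library. The log2 fold change of miR-183-5p turned to -0.0079 with library totals and with limma at each of the 3 pseudocounts, and ran from -0.095 to 0.047 with a library left out, that of miR-182-5p from -0.28 to 0.17 and that of miR-96-5p from 0.18 to 0.92. The summed cluster turned to 0.19 as a mean of log2 levels and ran from -0.16 to 0.15 with a library left out. Likewise the log2 ratios ran from -0.24 to 0.15 (miR-182-5p over miR-183-5p), -0.95 to -0.31 (miR-182-5p over miR-96-5p) and -0.88 to -0.28 (miR-183-5p over miR-96-5p), and the share of miR-182-5p from -4.68 to 2.12 percentage points. Fewer libraries enter those fits. The range of miR-183-5p over the libraries was 0.11 in log2 units with TMM or DESeq2 scaling, alternatives chosen after seeing the data. The count of members with both apelin libraries above both controls, or both below, was also chosen after seeing the data. It was 1 (miR-96-5p, above) in TPM and under both of these scalings. Of all 263 tested entries, 20.9% had both apelin libraries above both controls in TPM and 17.5% had both below, so such a placing was not rare.

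With replicate numbers as a block the log2 fold changes were 0.012, 0.59 and -0.036 for miR-183-5p, miR-96-5p and miR-182-5p, no entry was called by edgeR (50 at an unadjusted p under 0.05), and no other call changed. Nothing in the labels says that a number marks a shared culture or day. Deviations from the group means correlated at 0.312 between same-numbered libraries (207 miRNAs).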

Other observations

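Other miRNAs that share a transcript were set beside the cluster, as pairs chosen after the values were seen and given with no test. The log2 range of the ratio over the 4 libraries was 0.39 for miR-182-5p over miR-183-5p, 1.00 for miR-183-5p over miR-96-5p and 1.26 for miR-182-5p over miR-96-5p. It was 0.084 for miR-17-5p over miR-20a-5p, 0.18 for miR-221-3p over miR-222-3p, 0.31 for miR-25-3p over miR-93-5p and 0.68 for miR-25-3p over miR-106b-5p. The ratio of miR-93-5p to miR-106b-5p, both from the intron of MCM7, had a range of 0.99, near that of miR-183-5p to miR-96-5p. It was 5.11 and 3.55 with apelin and 7.06 and 5.92 in controls. Both apelin libraries were below both controls for miR-93-5p over miR-106b-5p, miR-25-3p over miR-106b-5p and miR-17-5p over miR-20a-5p, and above both for miR-25-3p over miR-93-5p, while miR-221-3p over miR-222-3p overlapped. Not all members of these transcripts were paired. From the transcript of miR-17-5p, miR-19a-3p had 100 and 121 TPM with apelin and 60.9 and 63.0 TPM in controls. From the same transcript, miR-92a-1-3p had 32166 and 23472 TPM with apelin and 32687 and 27859 TPM in controls. Their ratio was not worked out, so the ranges above do not show how wide those of such pairs can be.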
